A study of Mus musculus with 9 samples.

Results

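The genes described here are 42 interferon-stimulated genes, chosen by name as the rows of the deposited count table whose gene symbol is on a list of genes that interferons induce in the mouse. They are 42 of 55302 rows of that table, and all 42 are among the 15417 genes that passed the filter on low counts and were tested. RNA-seq was read from 9 libraries of sorted dendritic cells of the thymus of C57BL/6 mice aged 8 weeks, with 3 libraries from each of 3 sorted populations, labelled CD301b, SIRPa and XCR1. No treatment, mutation or transgene is labelled for any group. The CD301b libraries carry the replicate numbers 1, 3 and 4, and the SIRPa and XCR1 libraries the numbers 1 to 3. The design text speaks of 3 mice, and neither it nor the labels say whether libraries of different populations share an animal, so the P-values given reflect how far these libraries vary, which may be technical variation alone. No source used here describes the gates of the sort.

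Interferons are secreted proteins that bind receptors on the cell surface. Type I interferons bind IFNAR1 and IFNAR2, and interferon gamma binds IFNGR1 and IFNGR2. Kinases of the JAK family then phosphorylate STAT proteins, which carry the signal to the nucleus. The complex ISGF3, which holds IRF9, binds the interferon-stimulated response element (ISRE), while genes induced by interferon gamma often carry the gamma-activated sequence (GAS). The induced genes code for proteins that block steps of viral replication, tag other proteins or restrain the signal. In the thymus, epithelial cells of the medulla are known to make type I interferon without infection, and dendritic cells there carry a resting interferon response.

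The populations are named for surface proteins. CD301b is a lectin encoded by Mgl2, SIRPα is an inhibitory receptor found on macrophages and on the cDC2 subset of conventional dendritic cells, and XCR1 is a chemokine receptor found on the cDC1 subset. Levels are given as CPM, the usual depth-scaled read count, after scaling of the library sizes by TMM, and as mean ± SD over 3 libraries of a population. Mgl2 stood at 683, 625 and 566 CPM in CD301b libraries, at 17.7, 23.5 and 28.3 CPM in SIRPa libraries and at 2.34, 1.33 and 1.78 CPM in XCR1 libraries. Xcr1 stood at 0.319 to 1.08 CPM in CD301b, 6.58 to 15.6 CPM in SIRPa and 663 to 854 CPM in XCR1 libraries. Sirpa stood at 600 to 705 CPM in CD301b, 734 to 841 CPM in SIRPa and 9.03 to 14.6 CPM in XCR1 libraries. Each population therefore carried the transcript it is named for. The labels' source name calls the cells thymocytes while their cell type calls them dendritic cells. Summed over 12 genes of thymocytes and T cells, the level was 139 to 353 CPM in CD301b, 134 to 325 CPM in SIRPa and 73.2 to 494 CPM in XCR1 libraries, against 1774 to 2192 CPM, 1545 to 1866 CPM and 8782 to 10629 CPM for 10 cDC1 genes. The sum of 10 cDC2 genes was 2493 to 2906 CPM in CD301b and 1947 to 2135 CPM in SIRPa libraries. In XCR1 libraries it was 147 to 157 CPM. Of these 10, 9 were higher and 1 (Clec12a) lower in CD301b, and likewise in SIRPa, than in XCR1 cells. Libraries held 20246092 to 25438864 counts, and a single count was worth 0.0398 to 0.0499 CPM. A gene of the 42 had between 6 and 24139 counts in a library.

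The start sites of 6 of the genes are shown first, because they hold the letters that ISGF3 is known to bind in some genes and lack them in others. The planned choice was Ifit3, Ifitm3, Ifit1, Gbp2 and Oasl2. Isg15 and Ifi205 were added outside it, and Gbp2, with 1 match at -58, is not shown. Each window runs from 250 bases before to 50 bases after the gene's start site in RefSeq's annotation of GRCm38.p6 and is written 5′ to 3′ in the gene's own direction. Capitals mark matches to the ISRE core GAAANNGAA on either strand, with matches that overlap run together, and positions count the start site as base 1. Ifit3 (chr19:34583279-34583578, plus strand) held matches beginning at -155, -121 and -102. Ifit1 (chr19:34640639-34640938, plus strand) held matches at -109, -103 and -84. Ifitm3 (chr7:141010695-141010994, minus strand) held matches just past its start, at 3 and 20. Isg15 (chr4:156200769-156201068, minus strand) held overlapping matches at -78, -72 and -66. Ifi205 (chr1:174031706-174032005, minus strand) held matches at -134 and 25. Oasl2 (chr5:114896684-114896983, plus strand) held none.
Ifit3: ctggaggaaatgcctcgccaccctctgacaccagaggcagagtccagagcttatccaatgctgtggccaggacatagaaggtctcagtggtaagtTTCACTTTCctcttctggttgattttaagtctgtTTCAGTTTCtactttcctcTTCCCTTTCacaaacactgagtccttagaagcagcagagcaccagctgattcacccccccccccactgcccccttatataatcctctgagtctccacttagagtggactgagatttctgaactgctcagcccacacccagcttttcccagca
Ifit1: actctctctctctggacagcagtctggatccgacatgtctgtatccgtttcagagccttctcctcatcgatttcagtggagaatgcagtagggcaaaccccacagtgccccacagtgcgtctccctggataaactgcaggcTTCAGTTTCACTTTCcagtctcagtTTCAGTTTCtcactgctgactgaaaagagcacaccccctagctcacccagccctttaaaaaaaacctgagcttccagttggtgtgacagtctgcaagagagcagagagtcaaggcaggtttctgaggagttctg
Ifitm3: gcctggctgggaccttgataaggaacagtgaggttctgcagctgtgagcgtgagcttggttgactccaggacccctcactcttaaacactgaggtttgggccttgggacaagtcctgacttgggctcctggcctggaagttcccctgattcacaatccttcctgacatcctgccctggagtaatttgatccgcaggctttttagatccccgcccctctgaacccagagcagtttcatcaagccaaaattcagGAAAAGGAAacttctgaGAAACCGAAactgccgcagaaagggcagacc
Isg15: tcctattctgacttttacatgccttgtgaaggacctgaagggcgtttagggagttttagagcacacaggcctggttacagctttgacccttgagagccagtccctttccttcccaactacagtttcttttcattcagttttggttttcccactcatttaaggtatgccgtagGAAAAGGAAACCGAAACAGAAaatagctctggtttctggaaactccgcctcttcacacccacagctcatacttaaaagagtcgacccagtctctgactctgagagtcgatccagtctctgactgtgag
Ifi205: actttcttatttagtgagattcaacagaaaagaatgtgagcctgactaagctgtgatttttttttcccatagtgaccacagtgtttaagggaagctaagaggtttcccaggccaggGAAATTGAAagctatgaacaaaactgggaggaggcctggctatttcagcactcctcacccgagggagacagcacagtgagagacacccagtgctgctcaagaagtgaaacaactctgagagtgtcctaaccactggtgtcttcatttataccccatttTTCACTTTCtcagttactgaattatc
Oasl2: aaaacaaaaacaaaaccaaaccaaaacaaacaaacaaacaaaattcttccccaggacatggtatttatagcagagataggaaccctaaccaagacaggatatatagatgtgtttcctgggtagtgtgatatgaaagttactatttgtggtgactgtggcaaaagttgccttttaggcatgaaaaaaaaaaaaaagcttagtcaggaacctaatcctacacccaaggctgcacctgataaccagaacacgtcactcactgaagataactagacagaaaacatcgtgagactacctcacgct

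A window outside chromosome 18 was found for 32 of the 42 genes. Not matched were Usp18, Oas2, Mx1, Mx2, Iigp1, Ifi204, Parp9, Parp14, Rtp4 and Tor3a. An ISRE core lay in the windows of 20 of the 32 genes (62.5%). Of all 27025 genes with a RefSeq window, whether tested here or not, 2638 held one (9.76%). A GAS core, TTCNNNGAA on either strand, lay in 9 of the 32 (28.1%), against 2582 of the 27025 genes (9.55%). The ISRE core was present in 11 of the 15 genes with a window that were higher in SIRPa than in XCR1 cells, in 3 of the 5 that were lower and in 6 of the 12 that did not pass the test there. Isg15, with 3 matches, was called in no comparison, and Ifi205, with 2, was far lower in CD301b and SIRPa than in XCR1 cells. Oasl2, with none in this window, was among those highest over XCR1. A match of letters is a description and not a site of binding.

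Every population expressed the genes, but in different proportions. Per kilobase of exon, the scale on which genes can be set beside each other, the highest levels in CD301b cells were those of Lgals3bp at 192 ± 9.77, Ifitm3 at 126 ± 20.6 and Bst2 at 68.8 ± 8.03 CPM per kb. The same genes led in SIRPa cells, with 353 ± 41.8 CPM per kb for Lgals3bp, 193 ± 6.37 for Ifitm3 and 81.9 ± 3.52 for Bst2. XCR1 cells had another order, led by Ifi205 at 134 ± 8.78, Trim30a at 94.4 ± 8.89 and Slfn5 at 78.0 ± 9.68 CPM per kb. In XCR1 cells Ifitm3 stood at 12.3 ± 3.85 CPM per kb. The highest mean was that of CD301b cells for 5 of the 42 genes, of SIRPa cells for 28 and of XCR1 cells for 9. The order of means with SIRPa first, CD301b next and XCR1 last was seen for 21 of the 42 genes (50%), against 22.0% of all genes tested.

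**Figure D1:**
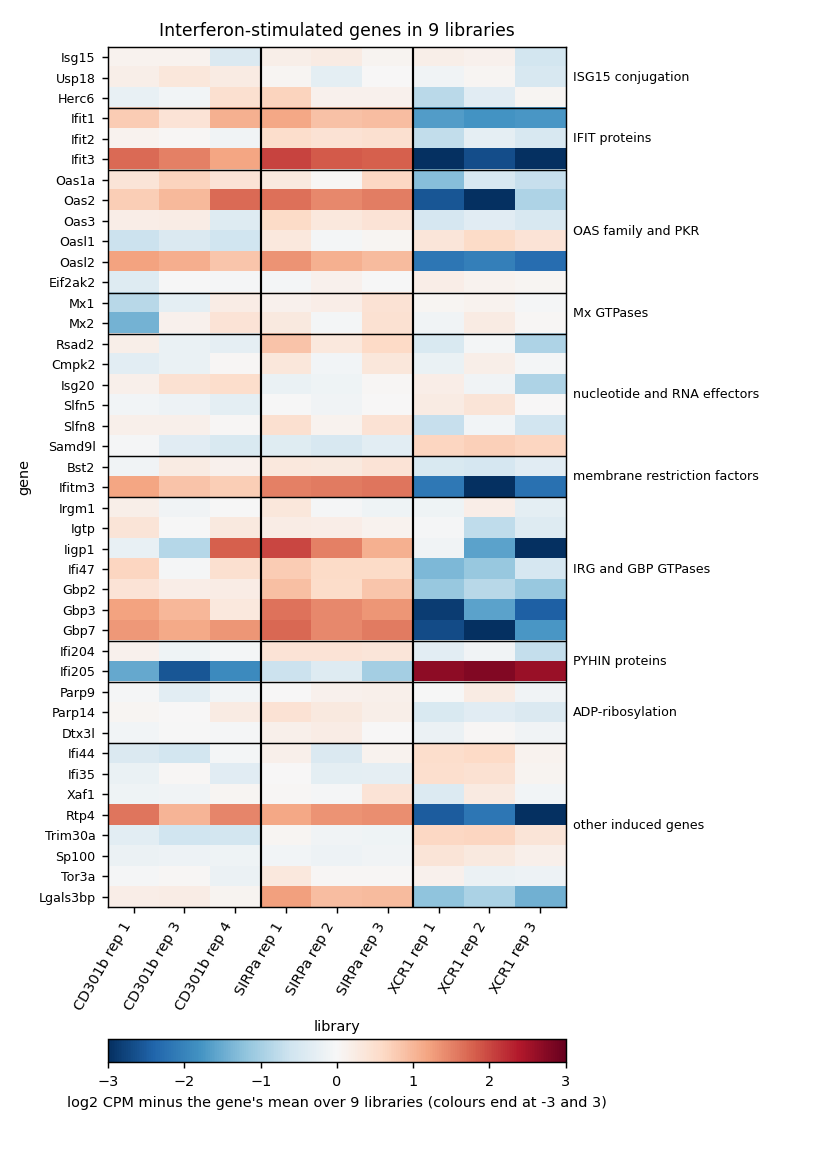
Level of each of the 42 genes (rows, grouped by what their proteins do) in each of the 9 libraries (columns), as log2 CPM minus the gene's mean over the 9 libraries; red is above and blue below that mean. Ifit3, Oas2, Oasl2, Ifitm3, Gbp3, Gbp7 and Rtp4 are blue in all 3 XCR1 libraries and red in all 6 others, and Ifi205 shows the opposite.

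Called here means an adjusted p under 0.05 in edgeR's quasi-likelihood test with Benjamini-Hochberg adjustment over all 15417 genes. Against XCR1, 19 of the 42 genes were higher and 8 lower in CD301b cells, where 13.5% of all genes tested were called higher and 9.12% lower. In SIRPa cells, 20 of the 42 were higher and 5 lower than in XCR1 cells, where 13.9% of all genes were called higher and 10.7% lower. Between the other populations, 6 of the 42 were lower in CD301b than in SIRPa cells and 0 were higher, where 2.08% of all genes were called lower and 2.2% higher. For the genes higher in CD301b, edgeR's count at an unadjusted p under 0.05 was 1, and DESeq2 and limma-voom called 0. The share of all genes at that unadjusted threshold was not computed. Against XCR1, the genes called higher were thus a larger share of the 42 than of all genes tested. So were those lower in CD301b cells, while those lower in SIRPa cells were near the all-gene share. Between CD301b and SIRPa cells, the calls lower in CD301b exceeded the all-gene share. At 2.2% of all genes, few or no calls higher would be seen among 42. In CD301b against XCR1 the median log2 fold change was 0.41 over the 42 genes and 0.05 over all genes tested. In SIRPa against XCR1 it was 0.60 over the 42 and 0.06 over all genes. In CD301b against SIRPa it was -0.25 over the 42 and 0.01 over all genes. The 3 comparisons share libraries pairwise, so their results for a gene are not independent of each other.

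Altogether 17 genes were higher in both CD301b and SIRPa than in XCR1 cells, and 5 were lower in both (Ifi205, Trim30a, Samd9l, Ifi35 and Sp100). Of all genes tested, 10.8% were higher in both and 6.65% lower in both, and the 2 comparisons share the XCR1 libraries. No gene was called in opposite directions against XCR1. In 30 genes at least 1 comparison was called, against 30.1% of all genes, and in 12 none was. Changes of at least 2-fold were called for 12 genes higher and 2 lower in CD301b than in XCR1 cells, and for 14 higher and 2 lower in SIRPa than in XCR1 cells. The same held of 8.86% of all genes (higher) and 3.59% (lower) in CD301b against XCR1 cells, and of 9.59% (higher) and 3.78% (lower) in SIRPa against XCR1 cells. In CD301b against SIRPa 1 gene, Ifi205, differed by that much and was lower in CD301b, as were 0.843% of all genes.

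Genes of other cell types also differed between the populations. The summed level of 12 macrophage genes (among them C1qa, Mertk, Vcam1 and Timd4) was 2702 to 3089 CPM in CD301b, 5527 to 6473 CPM in SIRPa and 120 to 197 CPM in XCR1 libraries, and 11 of the 12 were higher in CD301b, and likewise in SIRPa, than in XCR1 cells. In CD301b against SIRPa, 2 of the 12 were lower, among them Vcam1, and 1 was higher (Timd4). The sum of 11 plasmacytoid dendritic cell genes was 548 to 711 CPM in CD301b, 408 to 467 CPM in SIRPa and 98.7 to 129 CPM in XCR1 libraries, with Cd300c at 0 in all CD301b libraries and none at 0 throughout in the others. Siglech, a defining gene of those cells, stood at 37.1 to 46.2 CPM in CD301b, 31.1 to 41.0 CPM in SIRPa and 4.13 to 11.6 CPM in XCR1 libraries. The sum of 10 monocyte genes was 873 to 1039 CPM in CD301b, 769 to 790 CPM in SIRPa and 118 to 210 CPM in XCR1 libraries. The sum of 10 B cell genes was 22.9 to 27.2 CPM in CD301b and 46.0 to 79.1 CPM in SIRPa libraries. In XCR1 libraries it was 5.18 to 16.6 CPM. Of 7 tested, 1 was higher (Cd79a) and 2 lower (Ms4a1 and Pax5) in CD301b than in XCR1 cells. In SIRPa against XCR1, 4 were higher and 0 lower. Ms4a1, Pax5, Vpreb3 and Blk were at 0 in all CD301b libraries, and Cd79a and Vpreb3 in all XCR1 libraries. Vpreb3 was at 0 in all SIRPa libraries as well. The sum of 10 genes of mature dendritic cells was 3011 to 3391 CPM in CD301b and 3373 to 3471 CPM in SIRPa libraries. In XCR1 libraries it was 2350 to 3108 CPM. These genes went both ways in CD301b against XCR1, with 3 higher (Il4i1, Ccl22 and Socs2) and 3 lower (Il15ra, Ccr7 and Cacnb3). In SIRPa against XCR1, 5 were higher and 0 lower. In CD301b against SIRPa, 4 were lower, among them Ccr7, and 0 higher. The part of such cells in the differences described below was not tested. In bulk samples, fewer cells of a type and less RNA per cell cannot be told apart.

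**Figure D2:**
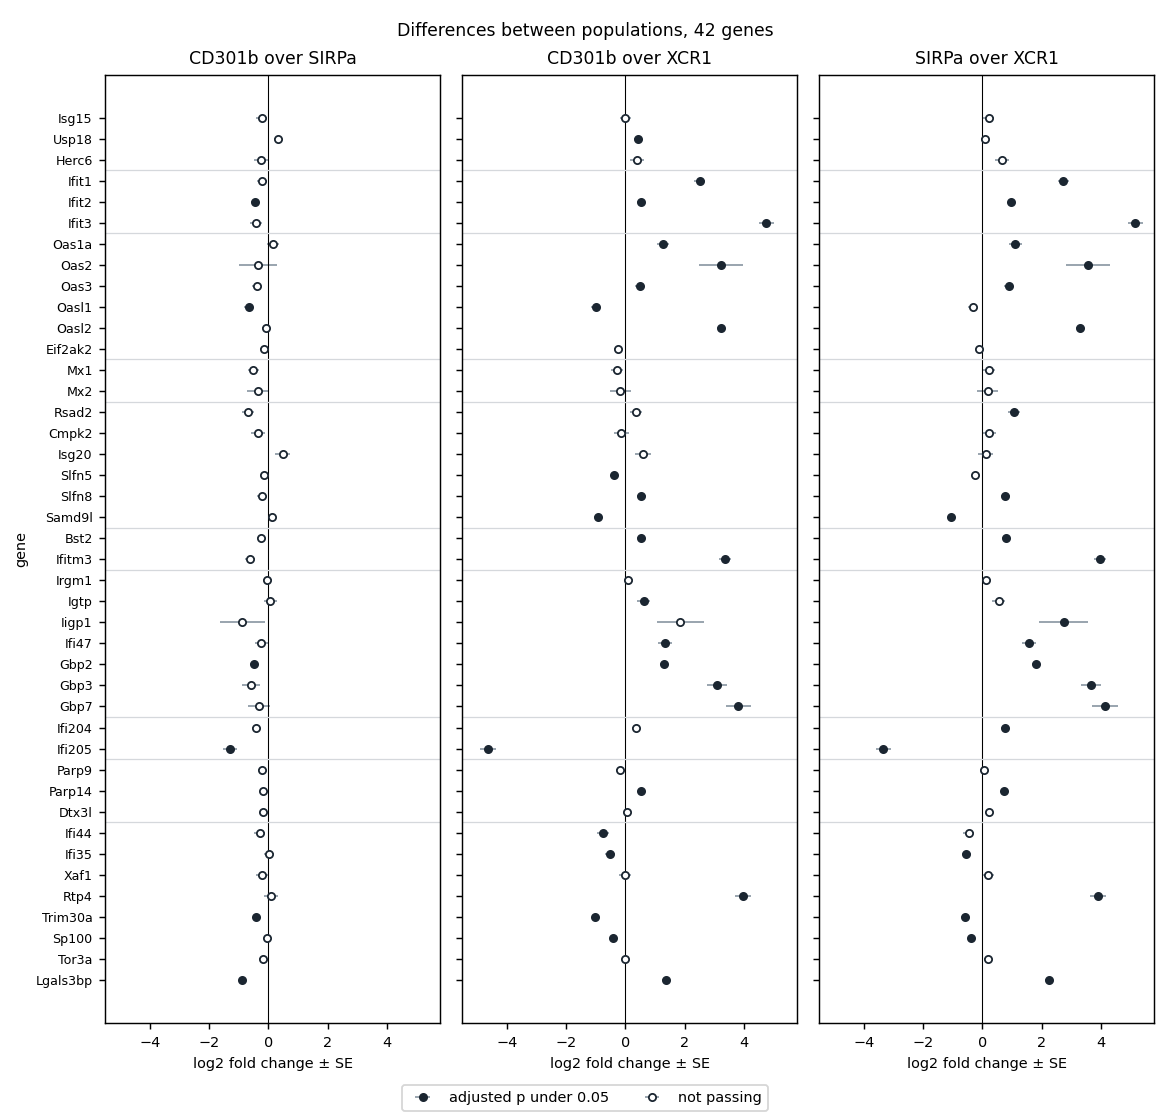
Log2 fold change from edgeR of each of the 42 genes (rows, in the same groups), with an SE worked out from its F statistic. Panels show CD301b over SIRPa, CD301b over XCR1 and SIRPa over XCR1. Filled points have an adjusted p under 0.05. Both right panels hold fold changes out to 4.75 and 5.16 (Ifit3) and to -4.63 and -3.34 (Ifi205), while the left panel runs from -1.28 to 0.48.

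The IFIT proteins bind foreign or unmodified RNA and block its translation, and their genes lie side by side on chromosome 19. All 3 were higher in both CD301b and SIRPa cells than in XCR1 cells. Ifit3 (chr19:34583531-34588731, plus strand) stood at 67.4, 59.4 and 47.6 CPM in CD301b libraries, at 85.3, 75 and 72.2 CPM in SIRPa libraries and at 1.65, 3.28 and 1.54 CPM in XCR1 libraries. Its XCR1 libraries were all under 4 CPM, and no library of the other populations came near them. The log2 fold change was 4.75 ± 0.25 (SE) in CD301b over XCR1 (adjusted p = 5.32e-12) and 5.16 ± 0.25 in SIRPa over XCR1 (adjusted p = 1.81e-12), the largest of the 42 genes in both. Of its 50-base stretches 51.2% also occur in the paralog Ifit3b, so reads could be split between the 2 genes. Ifit3b itself stood at 13.7 ± 4.0 CPM in CD301b, 21.2 ± 1.5 CPM in SIRPa and 0.0660 ± 0.0764 CPM in XCR1 cells.

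Ifit1 (chr19:34640871-34650009, plus strand) stood at 63.7, 49.9 and 79.9 CPM in CD301b libraries, at 84.7, 69.6 and 72.1 CPM in SIRPa libraries and at 11.9, 11.0 and 11.3 CPM in XCR1 libraries. The CD301b and SIRPa libraries overlapped, and both lay above every XCR1 library. It was 5.66-fold higher in CD301b than in XCR1 cells (log2 fold change 2.5 ± 0.18, adjusted p = 9.5e-10) and 6.62-fold higher in SIRPa than in XCR1 cells (2.73 ± 0.18, adjusted p = 2.66e-10). Ifit2 (chr19:34550694-34576419, plus strand) was expressed in all populations, with 238, 226 and 205 CPM in CD301b libraries, 318, 296 and 308 CPM in SIRPa libraries and 131, 181 and 157 CPM in XCR1 libraries. The 3 populations did not overlap, with SIRPa highest and XCR1 lowest. Its log2 fold change was 0.51 ± 0.12 in CD301b over XCR1 (adjusted p = 0.00236) and 0.97 ± 0.12 in SIRPa over XCR1 (adjusted p = 1.52e-06). In CD301b over SIRPa it was -0.46 ± 0.12 (adjusted p = 0.0217). That last call was lost without CD301b replicate 3 or 4 or without any 1 of the SIRPa replicates, with adjusted p up to 0.105. It was also lost when the replicate number was added to the fit as a block (adjusted p = 0.118). Ifit2 and Ifit3, 7.11 kb apart, thus differed from XCR1 cells by 1.42-fold and 26.9-fold in CD301b cells.

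Oligoadenylate synthetases sense double-stranded RNA and make the messenger that activates RNase L, and OAS-like proteins are relatives of them. Both directions occurred in this family. Oasl2 (chr5:114896936-114912234, plus strand) stood at 164, 150 and 127 CPM in CD301b libraries, at 179, 147 and 137 CPM in SIRPa libraries and at 15.7, 17.0 and 14.6 CPM in XCR1 libraries. CD301b and SIRPa libraries overlapped, and every XCR1 library lay far below them. Oasl2 was 9.31-fold higher in CD301b (log2 fold change 3.22 ± 0.15, adjusted p = 5.15e-13) and 9.79-fold higher in SIRPa cells (3.29 ± 0.15, adjusted p = 4.26e-13) than in XCR1 cells. Oasl1, whose mouse protein is known to restrain translation of Irf7, begins 11.0 kb further along the same strand (chr5:114923240-114937915). It stood at 32.2, 37.4 and 33.3 CPM in CD301b libraries, at 62.1, 48.0 and 52.3 CPM in SIRPa libraries and at 64.1, 74.0 and 66.6 CPM in XCR1 libraries. CD301b libraries were the lowest and did not overlap with the others. The log2 fold change was -0.99 ± 0.15 in CD301b over XCR1 (adjusted p = 4.06e-05), -0.66 ± 0.15 in CD301b over SIRPa (adjusted p = 0.0125) and -0.33 ± 0.15 in SIRPa over XCR1 (adjusted p = 0.122). The difference from SIRPa was no longer called when replicate 1 of either population was left out, with adjusted p up to 0.112.

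Oas2 stood at 25.9 ± 9.61 CPM in CD301b, 33.0 ± 2.45 CPM in SIRPa and 2.77 ± 2.83 CPM in XCR1 cells. Its XCR1 libraries ranged from 0.475 to 5.93 CPM, and leaving out XCR1 replicate 1 ended both calls against XCR1 (adjusted p up to 0.0788 and 0.0538), as did leaving out CD301b replicate 4 in CD301b against XCR1. The replicate block ended the call in CD301b against XCR1 as well (adjusted p = 0.0531). Oas1a averaged 50.8 ± 5.52 CPM in CD301b, 45.5 ± 9.11 CPM in SIRPa and 21.0 ± 5.69 CPM in XCR1 cells, which was 2.41-fold and 2.16-fold over XCR1 (adjusted p = 8.46e-05 and 0.000329). The paralogs Oas1g and Oas1b share 57.6% of the 50-base stretches of Oas1a, so its counts are uncertain. Oas3 averaged 71.8 ± 16.2 CPM in CD301b, 95.0 ± 8.59 CPM in SIRPa and 51.5 ± 3.13 CPM in XCR1 cells. The difference of Oas3 from XCR1 passed in SIRPa (log2 fold change 0.88, adjusted p = 0.000201) and in CD301b cells (0.48, adjusted p = 0.0296). In CD301b cells it did not pass when replicate 1 or 3 of CD301b or of XCR1, or replicate 3 of SIRPa, was left out (adjusted p up to 0.149). Nor did it pass there in a fit of only the 6 libraries compared. Eif2ak2, the kinase PKR that halts translation on double-stranded RNA, stood at 87.3, 112 and 112 CPM in CD301b libraries, at 109, 124 and 112 CPM in SIRPa libraries and at 131, 122 and 119 CPM in XCR1 libraries. It was called in none of the comparisons (adjusted p = 0.696 in CD301b against SIRPa, 0.148 in CD301b against XCR1 and 0.615 in SIRPa against XCR1).

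The membrane restriction factors were both higher outside XCR1 cells. IFITM3 blocks the fusion of viruses with endosomes. Ifitm3 (chr7:141009586-141010770, minus strand) stood at 101, 81.0 and 73.8 CPM in CD301b libraries, at 126, 132 and 135 CPM in SIRPa libraries and at 10.1, 5.32 and 9.50 CPM in XCR1 libraries. SIRPa libraries were the highest, CD301b libraries lay between, and XCR1 libraries were far below both. It was 10.3-fold higher in CD301b than in XCR1 cells (log2 fold change 3.36 ± 0.20, adjusted p = 5.75e-11) and 15.7-fold higher in SIRPa than in XCR1 cells (3.98 ± 0.20, adjusted p = 5.9e-12). In CD301b over SIRPa the log2 fold change was -0.62 ± 0.18, with an adjusted p of 0.0512, and 11 of 17 alternative settings put it below the threshold. Bst2, also called tetherin, holds budding virus at the cell surface and is much used as a surface marker of mouse plasmacytoid dendritic cells. It averaged 62.2 ± 7.25 CPM in CD301b, 74.0 ± 3.18 CPM in SIRPa and 42.8 ± 2.56 CPM in XCR1 cells, with log2 fold changes of 0.54 (adjusted p = 0.00755) and 0.79 (adjusted p = 0.000221) over XCR1.

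**Figure D3:**
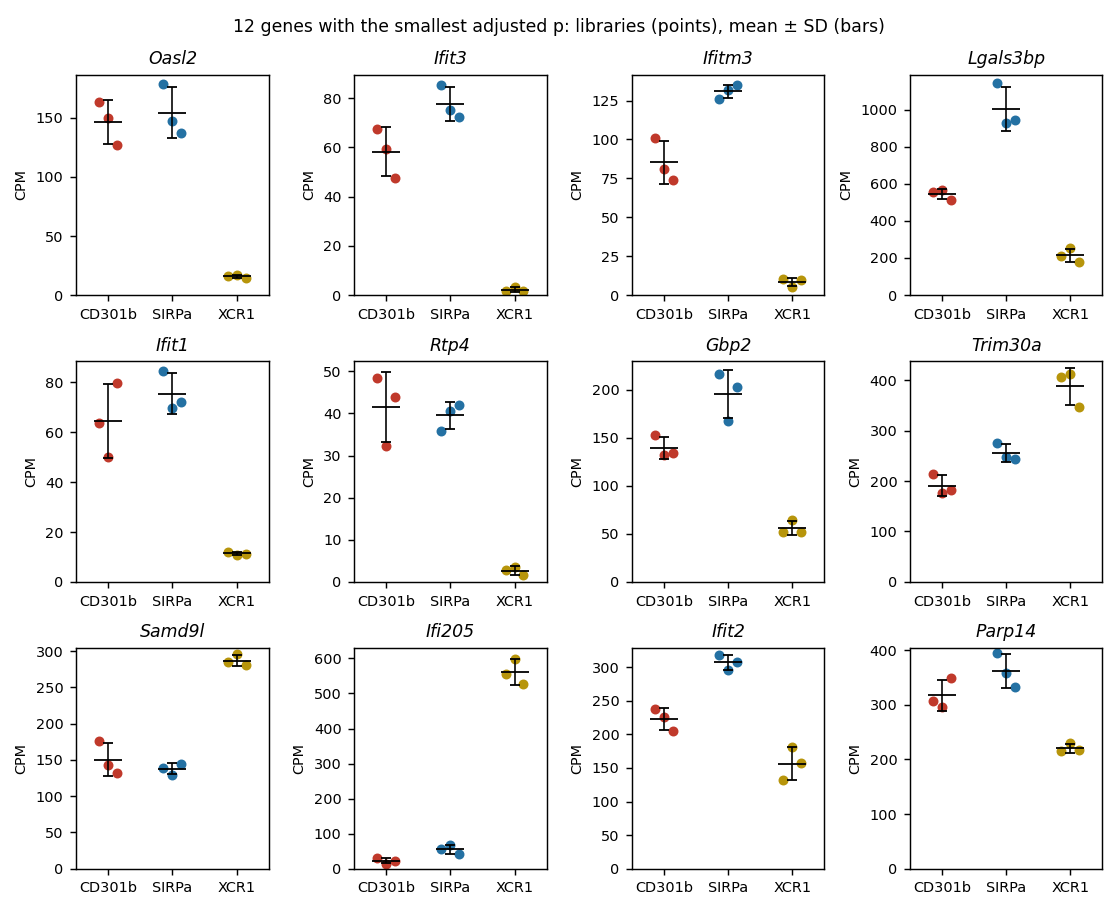
CPM in each library (points) with mean ± SD (bars) in CD301b, SIRPa and XCR1 cells for the 12 genes with the smallest adjusted p in any comparison; each panel's axis starts at 0. In Oasl2, Ifit3, Ifitm3, Ifit1 and Rtp4 the XCR1 libraries lie at 17.0 CPM or less, in Trim30a, Samd9l and Ifi205 they are the highest, and in Lgals3bp the SIRPa libraries are the highest.

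Interferon-inducible GTPases act at the membranes of vacuoles that hold pathogens, and fall into immunity-related GTPases (Irgm1, Igtp, Iigp1 and Ifi47) and guanylate-binding proteins (Gbp2, Gbp3 and Gbp7). In each comparison with XCR1, 5 of the 7 were higher and none was lower. Gbp2 (chr3:142620602-142638008, plus strand) stood at 152, 132 and 134 CPM in CD301b libraries, at 216, 167 and 203 CPM in SIRPa libraries and at 51.9, 64.7 and 52.4 CPM in XCR1 libraries. The 3 populations did not overlap. Its log2 fold change was 1.31 ± 0.13 in CD301b over XCR1 (adjusted p = 1.16e-07), 1.79 ± 0.13 in SIRPa over XCR1 (adjusted p = 1.01e-09) and -0.49 ± 0.13 in CD301b over SIRPa (adjusted p = 0.0286). The last of these was no longer called when CD301b replicate 3 or 4, or SIRPa replicate 1 or 3, was left out (adjusted p up to 0.181). Nor was it called with the replicate block (adjusted p = 0.0814).

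Gbp3 and Gbp7, neighbours of Gbp2 on chromosome 3, differed by more. Gbp3 stood at 104, 90.6 and 56.7 CPM in CD301b libraries, at 141, 123 and 114 CPM in SIRPa libraries and at 6.29, 15 and 8.39 CPM in XCR1 libraries. It was 8.48-fold higher in CD301b (adjusted p = 9.88e-05) and 12.7-fold higher in SIRPa cells (adjusted p = 3.08e-05) than in XCR1 cells. Gbp7 averaged 57.0 ± 4.03 CPM in CD301b, 71.4 ± 6.65 CPM in SIRPa and 4.08 ± 2.83 CPM in XCR1 cells, or 13.9-fold (adjusted p = 0.000135) and 17.5-fold (adjusted p = 7.6e-05) over XCR1. A predicted gene on its strand, Gm43802, overlaps 637 exon bases of Gbp7. Ifi47 averaged 32.6 ± 7.42 CPM in CD301b, 38.5 ± 2.90 CPM in SIRPa and 12.9 ± 4.12 CPM in XCR1 cells (adjusted p = 0.000195 and 2.81e-05 against XCR1).

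The other immunity-related GTPases were weakly or not separated. Igtp averaged 27.9 ± 3.89 CPM in CD301b, 26.7 ± 1.2 CPM in SIRPa and 18.3 ± 4.54 CPM in XCR1 cells, and passed in CD301b over XCR1 at an adjusted p of 0.0490, a call lost in 12 of 17 alternative settings. Among those were the fits without any 1 SIRPa library, CD301b replicates 1 or 4, and XCR1 replicates 2 or 3. Iigp1 was the lowest of the group, with 5.63 ± 5.53 CPM in CD301b, 10.4 ± 3.38 CPM in SIRPa and 1.56 ± 1.52 CPM in XCR1 cells. It passed in SIRPa over XCR1 (log2 fold change 2.74 ± 0.81, adjusted p = 0.0248) and not in the fits without SIRPa replicate 1 or XCR1 replicate 2 (adjusted p up to 0.127). Its 3 CD301b libraries spread from 1.93 to 12 CPM. Irgm1 averaged 90.2 ± 9.51 CPM in CD301b, 92.6 ± 16.4 CPM in SIRPa and 84.8 ± 15.2 CPM in XCR1 cells and was called in no comparison.

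The PYHIN proteins bind DNA in the nucleus and cytosol, and their genes form a cluster on chromosome 1. Ifi205 (chr1:174011998-174031810, minus strand) had the largest difference in favour of XCR1 cells among the 42. It stood at 30.0, 14.8 and 23.3 CPM in CD301b libraries, at 56.0, 66.6 and 43.1 CPM in SIRPa libraries and at 556, 600 and 527 CPM in XCR1 libraries. The populations did not overlap, and every XCR1 library was above 500 CPM. Its level was 24.7-fold lower in CD301b than in XCR1 cells (log2 fold change -4.63 ± 0.26, adjusted p = 4.41e-07) and 10.2-fold lower in SIRPa than in XCR1 cells (-3.34 ± 0.25, adjusted p = 3.39e-06). In CD301b over SIRPa the log2 fold change was -1.28 ± 0.24 (adjusted p = 0.013), a call lost when CD301b replicate 4 or SIRPa replicate 1 was left out (adjusted p up to 0.108). Of its 50-base stretches 18.6% recur in Ifi211, Mndal or Ifi204. Ifi211 was also lower in CD301b (45.2 ± 8.89 CPM) and SIRPa (72.2 ± 6.82 CPM) than in XCR1 cells (183 ± 12.2 CPM), while Mndal was called in no comparison. Ifi204 averaged 151 ± 13.7 CPM in CD301b, 201 ± 3.85 CPM in SIRPa and 119 ± 24.2 CPM in XCR1 cells. It was higher in SIRPa than in XCR1 cells (log2 fold change 0.75, adjusted p = 0.00016), the opposite direction to Ifi205. Of its stretches 20% are shared with related genes. Ifi204 was not called in CD301b against SIRPa (edgeR adjusted p = 0.0845) but passed there in 7 of 17 alternative settings. In CD301b against XCR1 (0.0664) it passed in 4.

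Nucleotide and RNA effectors starve viruses of building blocks or of RNA. Samd9l, which restrains translation and poxvirus growth, was lower in both populations than in XCR1 cells. It (chr6:3372257-3399572, minus strand) stood at 176, 144 and 132 CPM in CD301b libraries, at 139, 130 and 145 CPM in SIRPa libraries and at 284, 295 and 281 CPM in XCR1 libraries. CD301b and SIRPa libraries overlapped below all XCR1 libraries, with log2 fold changes of -0.93 ± 0.11 (adjusted p = 2.23e-06) and -1.06 ± 0.11 (adjusted p = 3.91e-07). Rsad2 codes for viperin, which makes a chain-terminating nucleotide, and Cmpk2, 12.8 kb away, for a nucleotide kinase of mitochondria. Rsad2 stood at 53.3, 41.1 and 39.4 CPM in CD301b libraries, at 85.6, 59.3 and 72.5 CPM in SIRPa libraries and at 34.5, 45.4 and 24.9 CPM in XCR1 libraries. It was higher in SIRPa than in XCR1 cells (log2 fold change 1.05 ± 0.20, adjusted p = 0.000441), and in CD301b over SIRPa its adjusted p was 0.0504 (-0.70 ± 0.20), which passed in 11 of 17 alternative settings. Cmpk2 averaged 15.7 ± 2.04 CPM in CD301b, 20.1 ± 3.15 CPM in SIRPa and 17.2 ± 2.31 CPM in XCR1 cells and was called in no comparison. The exonuclease gene Isg20 averaged 26 ± 3.5 CPM in CD301b, 18.6 ± 1.62 CPM in SIRPa and 17.2 ± 6.27 CPM in XCR1 cells and was not called either.

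The Schlafen genes Slfn5 and Slfn8, both on chromosome 11, went opposite ways in CD301b cells. Slfn8 averaged 103 ± 4.91 CPM in CD301b, 121 ± 16.3 CPM in SIRPa and 70.8 ± 16.5 CPM in XCR1 cells, with log2 fold changes of 0.54 (adjusted p = 0.0112) and 0.77 (adjusted p = 0.000525) over XCR1. Slfn5 averaged 374 ± 26.9 CPM in CD301b, 411 ± 18.4 CPM in SIRPa and 493 ± 61.2 CPM in XCR1 cells, and its log2 fold change in CD301b over XCR1 was -0.40 (adjusted p = 0.00731). The CD301b call of Slfn8 was lost without XCR1 replicate 1 or 3 (adjusted p up to 0.0747), and that of Slfn5 without XCR1 replicate 2 (0.0563). That of Slfn5 was also lost with the replicate block (adjusted p = 0.0524).

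ISG15 is a ubiquitin-like protein that is attached to other proteins, in the mouse with HERC6 as the main ligase, and USP18 removes it and also restrains signalling from IFNAR2. Isg15, among the most used interferon-stimulated genes, stood at 56.9, 56.8 and 39.6 CPM in CD301b libraries, at 59.6, 62.6 and 56.0 CPM in SIRPa libraries and at 59.9, 58.4 and 36.3 CPM in XCR1 libraries. All 3 populations overlapped, and no comparison was called (adjusted p = 0.717 in CD301b against SIRPa, 0.981 in CD301b against XCR1 and 0.504 in SIRPa against XCR1). Usp18 averaged 159 ± 8.27 CPM in CD301b, 128 ± 16.8 CPM in SIRPa and 120 ± 22.2 CPM in XCR1 cells. It passed in CD301b over XCR1 (log2 fold change 0.41 ± 0.13, adjusted p = 0.0315), but not when any 1 CD301b library, or replicate 3 of SIRPa, or replicate 1 or 3 of XCR1 was left out (adjusted p up to 0.168). Nor did it pass with the replicate block (adjusted p = 0.0859). Herc6 averaged 51.0 ± 13.8 CPM in CD301b, 60.6 ± 13.7 CPM in SIRPa and 38.6 ± 11.5 CPM in XCR1 cells and was called in no comparison. Its difference between SIRPa and XCR1 cells lay at the threshold (log2 fold change 0.65, edgeR adjusted p = 0.050006) and passed it in 8 of 17 alternative settings. The Mx GTPases trap viral ribonucleoproteins, and inbred strains such as C57BL/6 carry a defective Mx1. Mx1 averaged 63.7 ± 22.7 CPM in CD301b, 90.3 ± 9.58 CPM in SIRPa and 77.7 ± 4.02 CPM in XCR1 cells. Its CD301b libraries spread from 42.2 to 87.4 CPM, and Mx2 averaged 10.6 ± 5.67 CPM in CD301b, 13.6 ± 2.31 CPM in SIRPa and 11.9 ± 1.4 CPM in XCR1 cells. Neither gene was called. In CD301b against SIRPa, Mx1 passed in 4 of 17 alternative settings. Among them were the replicate block (log2 fold change -0.81, edgeR adjusted p = 0.00433) and the fit without CD301b replicate 4. In CD301b against XCR1, Mx1 passed in those same 2 settings only.

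PARP9 and DTX3L form a complex that modifies histones and host proteins, and PARP14 is a related ADP-ribosyltransferase. Parp14 (chr16:35832874-35871544, minus strand) stood at 307, 296 and 349 CPM in CD301b libraries, at 394, 358 and 332 CPM in SIRPa libraries and at 215, 230 and 217 CPM in XCR1 libraries. CD301b and SIRPa libraries overlapped, and all lay above the XCR1 libraries, with a log2 fold change of 0.53 ± 0.10 in CD301b over XCR1 (adjusted p = 0.000579) and 0.71 ± 0.10 in SIRPa over XCR1 (adjusted p = 1.78e-05). Dtx3l stood at 266, 277 and 276 CPM in CD301b libraries, at 311, 326 and 285 CPM in SIRPa libraries and at 247, 286 and 260 CPM in XCR1 libraries, and no comparison was called (adjusted p = 0.475, 0.827 and 0.124 in CD301b against SIRPa, CD301b against XCR1 and SIRPa against XCR1). Parp9, whose exons overlap those of Dtx3l on the other strand by 458 bases, stood at 135, 111 and 131 CPM in CD301b libraries, at 138, 152 and 153 CPM in SIRPa libraries and at 138, 163 and 129 CPM in XCR1 libraries. It was called in no comparison either (adjusted p = 0.411, 0.312 and 0.863 in the same order).

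Among the remaining genes, Lgals3bp and Rtp4 were higher and Trim30a, Sp100 and Ifi35 lower in both populations than in XCR1 cells. Lgals3bp (chr11:118392751-118402092, minus strand), which codes for a secreted ligand of galectins, stood at 558, 566 and 515 CPM in CD301b libraries, at 1142, 927 and 947 CPM in SIRPa libraries and at 211, 252 and 178 CPM in XCR1 libraries. The 3 populations were fully separate. The log2 fold change was 1.35 ± 0.12 in CD301b over XCR1 (adjusted p = 1.97e-08) and 2.23 ± 0.12 in SIRPa over XCR1 (adjusted p = 1.11e-11). In CD301b over SIRPa it was -0.88 ± 0.12 (adjusted p = 8.53e-05), and of the 6 genes lower there it was the 1 whose call held in all 17 alternative settings. Rtp4 (chr16:23520291-23614222, plus strand), a Golgi chaperone of receptors that restrains interferon responses, stood at 48.5, 32.3 and 43.9 CPM in CD301b libraries, at 35.9, 40.6 and 42 CPM in SIRPa libraries and at 2.84, 3.56 and 1.54 CPM in XCR1 libraries. CD301b and SIRPa cells overlapped and were 15.7-fold (log2 3.97 ± 0.27, adjusted p = 4.39e-10) and 14.9-fold (log2 3.90 ± 0.27, adjusted p = 5.53e-10) above XCR1 cells. Gm45338, on the same strand, overlaps 296 exon bases of Rtp4, and 11.6% of the 50-base stretches of Rtp4 recur in it.

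Trim30a (chr7:104409025-104465193, minus strand), a ubiquitin ligase of the mouse that restrains inflammatory signalling, stood at 215, 177 and 182 CPM in CD301b libraries, at 276, 248 and 243 CPM in SIRPa libraries and at 406, 412 and 346 CPM in XCR1 libraries. The 3 populations did not overlap, with XCR1 highest and CD301b lowest. Its log2 fold change was -1.02 ± 0.11 in CD301b over XCR1 (adjusted p = 3.59e-07), -0.60 ± 0.11 in SIRPa over XCR1 (adjusted p = 0.000251) and -0.42 ± 0.11 in CD301b over SIRPa (adjusted p = 0.0285). That last call was lost when CD301b replicate 3 or 4 or any 1 SIRPa library was left out (adjusted p up to 0.16). Sp100, a protein of nuclear bodies, averaged 227 ± 5.23 CPM in CD301b, 232 ± 5.98 CPM in SIRPa and 304 ± 24.3 CPM in XCR1 cells, with adjusted p of 0.00269 and 0.0048 against XCR1. Ifi35 averaged 50.4 ± 6.42 CPM in CD301b, 49.8 ± 6.13 CPM in SIRPa and 72.4 ± 10.9 CPM in XCR1 cells. It was lower than in XCR1 cells in CD301b (log2 fold change -0.52, adjusted p = 0.0199) and in SIRPa cells (-0.54, adjusted p = 0.0149). Without XCR1 replicate 1 or 2 neither call of Ifi35 passed, nor did the CD301b call without CD301b replicate 4 or the SIRPa call without SIRPa replicate 2 or 3 (adjusted p up to 0.09 and 0.0729). The CD301b call of Ifi35 was also lost with the replicate block (adjusted p = 0.116). Ifi44 averaged 33.0 ± 6.06 CPM in CD301b, 40.4 ± 8.34 CPM in SIRPa and 55.9 ± 9.97 CPM in XCR1 cells and was lower in CD301b than in XCR1 cells (log2 fold change -0.76, adjusted p = 0.00613). Tor3a, a torsin ATPase, stood at 108, 113 and 99.2 CPM in CD301b libraries, at 138, 115 and 113 CPM in SIRPa libraries and at 121, 99.2 and 100 CPM in XCR1 libraries and was called in no comparison (adjusted p = 0.572, 0.998 and 0.317 in CD301b against SIRPa, CD301b against XCR1 and SIRPa against XCR1). The apoptosis gene Xaf1 averaged 30.8 ± 2.24 CPM in CD301b, 35.6 ± 6.29 CPM in SIRPa and 31 ± 7.41 CPM in XCR1 cells and was not called either.

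Between CD301b and SIRPa cells, then, Lgals3bp, Oasl1, Ifi205, Ifit2, Trim30a and Gbp2 were lower in CD301b. Their log2 fold changes ran from -0.42 to -1.28. Of the 42 genes 35 had a negative log2 fold change there, against 49.2% of all genes tested. At an unadjusted p under 0.05 in edgeR, 11 genes were lower and 1 was higher, but the share of all genes at that threshold was not computed. The 6 called genes include both kinds of difference from XCR1: Lgals3bp, Ifit2 and Gbp2 had their lowest mean in XCR1 cells, and Oasl1, Ifi205 and Trim30a their highest. Without SIRPa replicate 1, 1 of the 42 genes was called lower. Without CD301b replicate 3, CD301b replicate 4 or SIRPa replicate 3, 3 were called. Limma-voom called 11, as did the fit with no filter on low counts.

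The libraries of a population lay together when all 42 genes were read at once. The median of the 42 genes' deviations from their means over 9 libraries, on the log2 scale, was 0.11, 0.02 and 0.07 in CD301b libraries, 0.33, 0.21 and 0.39 in SIRPa libraries and -0.26, -0.11 and -0.46 in XCR1 libraries. Every SIRPa library lay above every CD301b library by this measure, and every CD301b library above every XCR1 library. Over all genes tested the median ran from -0.03 to 0.06. Within SIRPa, replicate 1 was the highest of the 3 libraries for 26 of the 42 genes and 33.2% of all genes, and within XCR1, replicate 2 was the highest for 27 of the 42 and 32.7% of all genes. The median SD of log2 CPM within a population was 0.185 in CD301b, 0.142 in SIRPa and 0.242 in XCR1 cells over the 42 genes, against 0.220, 0.172 and 0.212 over the 9381 genes in the same range of CPM. Within XCR1, the genes of largest spread were Oas2, Iigp1 and Gbp7, each at a low level there.

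The steps that lead to these genes were read from lists of the pathway. Of 21 interferon genes none reached the filter, and all type I interferon genes on the list were at 0 counts in every library. Ifng had 0, 0 and 19 counts in CD301b replicates 1, 3 and 4, had 2, 0 and 8 counts in SIRPa replicates 1 to 3 and had 1, 0 and 0 counts in XCR1 replicates 1 to 3. Ifnl2, a type III interferon, had 12 counts in XCR1 replicate 3 and 0 in every other library. The sorted cells' own type I transcripts were thus not detectable at this depth.

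All 6 receptor chains were measured. Ifnar2, the chain that binds type I interferon with high affinity, stood at 69.9, 71.3 and 79.9 CPM in CD301b libraries, at 121, 96.3 and 110 CPM in SIRPa libraries and at 48.5, 45.5 and 50.5 CPM in XCR1 libraries. The populations did not overlap, and SIRPa was highest. Its log2 fold change was 0.61 ± 0.13 in CD301b over XCR1 (adjusted p = 0.00146), 1.18 ± 0.13 in SIRPa over XCR1 (adjusted p = 6.86e-07) and -0.57 ± 0.13 in CD301b over SIRPa (adjusted p = 0.013). Ifnar1 averaged 142 ± 7.74 CPM in CD301b, 171 ± 18.5 CPM in SIRPa and 121 ± 10.6 CPM in XCR1 cells, and passed in SIRPa over XCR1 (log2 fold change 0.51, adjusted p = 0.00205). Both chains of the interferon gamma receptor, Ifngr1 and Ifngr2, were called in no comparison. Ifnlr1, the chain specific for type III interferons, averaged 10.9 ± 0.964 CPM in CD301b, 16 ± 2.86 CPM in SIRPa and 22.9 ± 8.89 CPM in XCR1 cells and was lower in CD301b than in XCR1 cells (log2 fold change -1.07, adjusted p = 0.00709).

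Signal transducers split in both directions. Jak1 and Jak2 were higher in both CD301b and SIRPa than in XCR1 cells, and Stat2, Irf9 and Tyk2 were lower in both. Jak2 averaged 966 ± 57.4 CPM in CD301b, 747 ± 45.7 CPM in SIRPa and 503 ± 24.9 CPM in XCR1 cells (adjusted p = 9.37e-08 and 6.52e-05 against XCR1, and 0.0206 in CD301b against SIRPa). Irf9 averaged 104 ± 3.57 CPM in CD301b, 104 ± 10.8 CPM in SIRPa and 137 ± 16.3 CPM in XCR1 cells (adjusted p = 0.0216 and 0.0194 against XCR1).

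Interferon regulatory factors are transcription factors that bind similar letters to ISGF3. Of the 6 on the list, 1 (Irf2) was higher and 4 lower in CD301b than in XCR1 cells. In SIRPa against XCR1, 1 (Irf2) was higher and 3 lower. The log2 fold change of Irf2 was 0.64 in both. Of all genes tested, 13.5% were higher and 9.12% lower in CD301b than in XCR1 cells. In SIRPa against XCR1, 13.9% were higher and 10.7% lower. Irf8, which cDC1 need to develop, averaged 174 ± 29.5 CPM in CD301b, 356 ± 49.4 CPM in SIRPa and 1873 ± 202 CPM in XCR1 cells (adjusted p = 5.15e-13 and 5.94e-11 against XCR1). Irf1, itself induced by interferon gamma, averaged 84.4 ± 11.6 CPM in CD301b, 127 ± 12.6 CPM in SIRPa and 178 ± 26.5 CPM in XCR1 cells, and the 3 differences were all called (adjusted p = 0.0114 in CD301b against SIRPa, 3.02e-06 in CD301b against XCR1 and 0.00943 in SIRPa against XCR1). Irf7, which amplifies type I interferon, averaged 305 ± 42.8 CPM in CD301b, 387 ± 35.9 CPM in SIRPa and 387 ± 43.3 CPM in XCR1 cells and was lower in CD301b than in XCR1 cells (log2 fold change -0.35, adjusted p = 0.037).

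**Figure D4:**
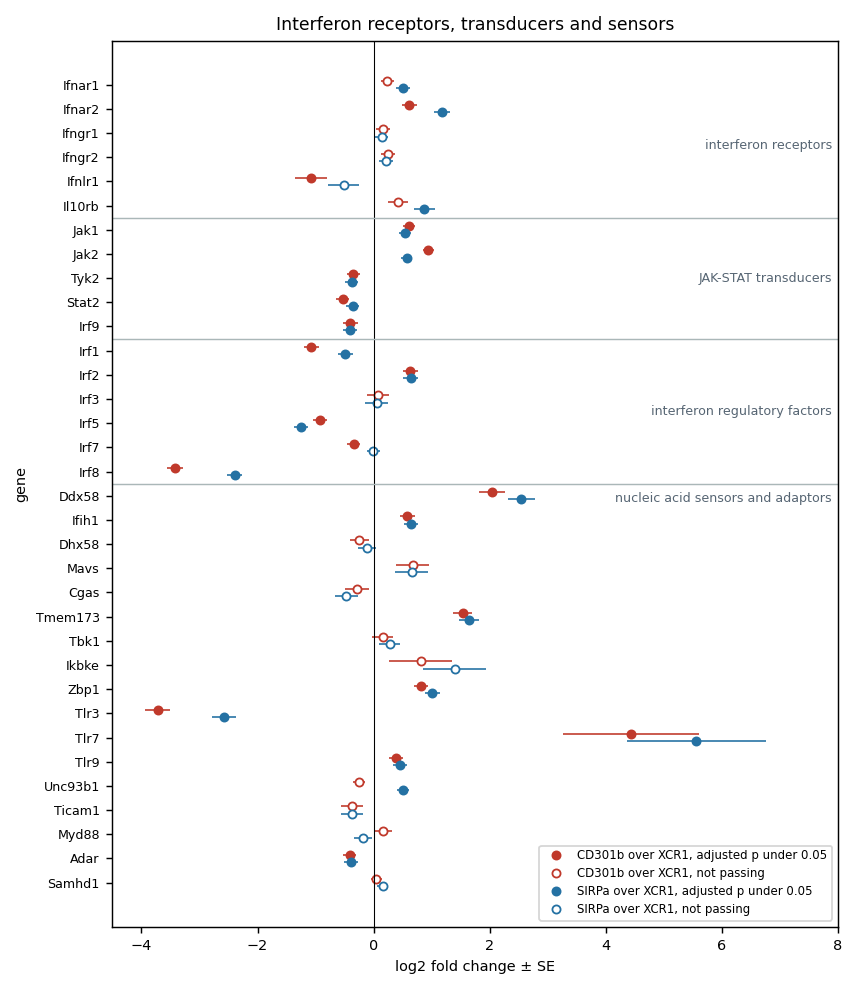
Log2 fold change from edgeR, with an SE worked out from its F statistic, for most of the tested interferon receptors, transducers, regulatory factors and nucleic acid sensors. Each pair shows CD301b over XCR1 (red, upper) and SIRPa over XCR1 (blue). Filled points have an adjusted p under 0.05. Ifnar2, Jak1 and Jak2 lie to the right of 0 and Stat2, Irf9, Irf1, Irf5 and Irf8 to the left, with Tlr3 at -3.72 and -2.58.

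Sensors of nucleic acids, which drive interferon production and are partly induced by it, were read next. Of 17 measured, 6 were higher and 2 lower in CD301b than in XCR1 cells, and 7 were higher and 2 lower in SIRPa than in XCR1 cells. Of all genes tested, 13.5% were called higher and 9.12% lower in CD301b, and 13.9% higher and 10.7% lower in SIRPa cells. The lower sensors were thus near the all-gene shares. Ddx58, the RNA sensor RIG-I, stood at 129, 108 and 89.3 CPM in CD301b libraries, at 176, 135 and 151 CPM in SIRPa libraries and at 16.6, 30.3 and 32.5 CPM in XCR1 libraries. It was 4.12-fold (adjusted p = 1.57e-05) and 5.83-fold (adjusted p = 2.06e-06) over XCR1. Tmem173, the adaptor STING, averaged 94.1 ± 2.76 CPM in CD301b, 102 ± 11.9 CPM in SIRPa and 32.5 ± 9.68 CPM in XCR1 cells. Tlr3, the receptor for double-stranded RNA that marks cDC1, averaged 10.8 ± 2.96 CPM in CD301b, 23.9 ± 4.87 CPM in SIRPa and 143 ± 17.5 CPM in XCR1 cells. Among 8 negative regulators, 4 were higher (Socs3, Ptpn1, Ptpn6 and Cish) and 1 lower (Ptpn11) in CD301b, and likewise in SIRPa, than in XCR1 cells. The 1 lower of 8 is near the all-gene shares above. Socs3 averaged 95.3 ± 10.8 CPM in CD301b, 90.3 ± 12 CPM in SIRPa and 8.18 ± 3.04 CPM in XCR1 cells.

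A further list of 70 induced genes, 6 of which are also on another list used here, gave 66 that could be tested. In CD301b cells 16 were higher and 17 lower than in XCR1 cells, with a median log2 fold change of 0.00, and in SIRPa cells 25 were higher and 15 lower, with a median of 0.34. In CD301b against SIRPa cells 8 were lower and 0 higher, with a median of -0.23. Of all genes tested, 2.08% were called lower and 2.2% higher in CD301b than in SIRPa cells. Against XCR1 the all-gene shares were 13.5% higher and 9.12% lower in CD301b, and 13.9% higher and 10.7% lower in SIRPa cells. Higher outside XCR1 cells were Ms4a4c, which is also on the monocyte list (117 ± 7.23 CPM in CD301b, 116 ± 9.09 CPM in SIRPa and 5.39 ± 0.645 CPM in XCR1 cells), Ddx60 (53.8 ± 6.49, 65.9 ± 8.84 and 7.46 ± 2.58 CPM) and the chemokine Cxcl10 (20.2 ± 5.41, 42 ± 9.24 and 2.34 ± 1.35 CPM). Lower in both than in XCR1 cells were the immunoproteasome gene Psmb9 (63.8 ± 7.62 CPM in CD301b, 70.4 ± 4.67 CPM in SIRPa and 178 ± 28.6 CPM in XCR1 cells), the peptide transporter Tap1 (258 ± 32.2, 278 ± 13.1 and 484 ± 39.3 CPM) and the chemokine Cxcl9 (52.2 ± 11.3, 58.8 ± 9.36 and 145 ± 17.7 CPM). Gbp8, Gbp5 and Epsti1 led the 8 genes lower in CD301b than in SIRPa cells, with log2 fold changes of -1.26, -0.80 and -0.74.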

How the data were processed

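RNA from cells sorted after collagenase digestion of thymi was made into stranded total RNA libraries, per the labels' protocols. Per the submitters' processing notes, reads were handled with HISAT2 and featureCounts (Subread) on the build mm10, beside FastQC, Trimmomatic, SAMtools and edgeR. Neither the annotation used nor whether counting was by strand is given in those notes, so genes that overlap on opposite strands (9 of the 42) may share reads. The authors deposited raw read counts per gene symbol for 9 libraries. A second deposited table, of log2 CPM, was not used here.

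Among the rows of the counts, 24 had symbols turned into dates and were used nowhere. They held 0.125 to 0.187% of a library's counts. Genes were kept with edgeR's filterByExpr at a minimum count of 10, which left 15417 of 55302. One quasi-likelihood fit (edgeR 4.0.16 in R 4.3.3, TMM scaling, robust estimation, two-sided tests) covered all 9 libraries with the 3 populations as groups. Benjamini-Hochberg adjustment ran over all 15417 genes, and genes under 0.05 were called, and the fit was tested on simulated data first. Fold changes are the first-named over the second-named population. The test gives no SE, so each SE is the size of the log2 fold change divided by the square root of the test's F statistic. DESeq2 1.42.0, limma 3.58.1, other scalings and filters, and fits without each library were alternatives. The labels do not say that same-numbered libraries of 2 populations are pairs, so the numbers were not used as pairs. Across genes, deviations of same-numbered libraries had r = 0.00305 to 0.0413, against -0.0672 to 0.0481 for libraries of different numbers. The ranges overlap, and such weak correlations cannot decide whether libraries share an animal.

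Gene positions and exon lengths are from GENCODE vM21 (GRCm38, the assembly of mm10), which holds 53543 of the symbols. Shared stretches are the share of a gene's 50-base words that recur in transcripts of other genes. Of the 42 genes, 9 shared over 10% of them. Promoter windows are RefSeq's. The 42 genes, the pathway and marker lists and the tests were chosen with earlier results of these data known. The value in every library is given for the 12 called genes of smallest adjusted p in any comparison and the 4 uncalled genes of highest mean CPM (Dtx3l, Parp9, Eif2ak2 and Tor3a). Isg15, Rsad2, Gbp3, Oasl1 and the pathway genes Ifnar2 and Ddx58 are given in the same detail outside that rule, and were chosen after their values were seen. Some genes of the pathway and marker lists are not reported here. Examples from the pathway lists were chosen in the same way. Depth limits genes of few counts, such as Iigp1, Oas2 and Gbp7 in XCR1 libraries.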

Additional observations from a re-analysis of the deposited data

How the results depend on the processing

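The alternatives were DESeq2's size factors, raw library totals, no filter on low counts, a minimum count of 50, DESeq2's Wald test, limma-voom, fits of the 6 libraries compared, a replicate block, and fits without each of the 9 libraries. The count of the 42 genes lower in CD301b than in SIRPa cells moved from 6 to 11 with no filter and to 11 with limma-voom, and ran from 1 to 9 over the fits without 1 library. The count of all genes called in that comparison, 660 at first, ran from 328 to 813 over those fits. The other counts stayed within 1.5 times: over all alternatives, the genes higher in CD301b than in XCR1 cells were 15 to 20, those lower 6 to 8, those higher in SIRPa than in XCR1 cells 19 to 22 and those lower 4 to 7. With the replicate block, whose numbers the labels do not tie to shared animals or days, 5 genes were lower and 0 higher in CD301b than in SIRPa cells, 17 were higher and 7 lower in CD301b than in XCR1 cells, and 21 were higher and 6 lower in SIRPa than in XCR1 cells. The 42 genes had 58 calls over the 3 comparisons, and of their 986 results over the 17 alternatives 923 still passed, 63 did not and 0 reversed. Why the counts moved was not tested. Fits that leave 1 library out change both the number of libraries and which libraries are used. A fit without a library left 2 in its population.

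With 3 libraries a population, spread limits what small differences can show. Counts of genes with close paralogs (Oas1a, Ifit3, Ifi204, Ifi205) are uncertain. Slfn8, Gbp7, Herc6, Igtp and Rtp4 share 11.6 to 14.6% of their 50-base stretches with other genes, so their counts carry the same limit to a lesser extent. The cause of the differences, and the part of macrophages, plasmacytoid dendritic cells, monocytes or B cells in them, was not tested.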
